A study of Rattus norvegicus with 12 samples.

Results

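The circadian clock of mammalian cells is a feedback loop of transcription. CLOCK or NPAS2, paired with BMAL1 (encoded by Arntl), switches on genes through E-boxes, and the PER and CRY proteins made from those genes later shut the pair down. Around this loop sit output factors and repressors: the PAR bZIP activators DBP, TEF and HLF act on D-boxes, NFIL3 represses the same sites, the REV-ERB receptors (Nr1d1 and Nr1d2) repress Arntl, and CIART and the DEC proteins (Bhlhe40 and Bhlhe41) repress E-box genes. In rodents Dbp and Nr1d1 are among the most strongly cycling transcripts, and their level in a tissue therefore depends on the hour of collection. BHLHE40 and BHLHE41 are also known targets of the hypoxia-inducible factor HIF-1.

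These 9 genes, chosen by name as clock outputs and repressors, were followed in rat hippocampus. They were chosen with earlier results of these data known. All 9 were among the 17935 genes with enough reads to be tested of 26949 in the table. The 2 groups were male rats exposed to chronic intermittent hypoxia (CIH), repeated episodes of low oxygen that model sleep apnoea, for 4 weeks, and male rats kept in normoxia (control) for 4 weeks. Each group had 3 RNA libraries of hippocampus, with 17170943 to 21941173 estimated read counts per library. The strain, the age and the hour of collection were not given in the sources used here. Nor did these sources tie each library to its own rat, so p-values cover only the variation among the 6 libraries, part or all of which may be technical.

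Neuronal genes were abundant in every library, with a summed level of the 6 neuron markers of 4954 to 8433 CPM (counts scaled to the TMM-adjusted library total) in CIH and 5524 to 7955 CPM in control. One library stood apart in its tissue markers. CIH replicate 1 held the highest value of 25.7% and the lowest value of 25.7% of all tested genes, where each other library held 13.2% to 16.3%. Its cortex markers summed to 1079 CPM, against 391.8 and 452 CPM in the other CIH libraries and 368 to 530 CPM in control. Most of that sum was Tshz2 (601 CPM) and Cux2 (203 CPM). Of the 8 cortex genes 4 were highest in this library, while Rasgrf2 was lowest in it, at 46.0 CPM. All 12 endothelial and pericyte markers were highest in it, with a sum of 524 CPM against 380 and 401 CPM in the other CIH libraries and 344 to 365 CPM in control. Its dentate granule markers summed to 191 CPM, against 416 and 709 CPM in the other CIH libraries and 361 to 868 CPM in control, with 6 of 8 listed genes tested and Tdo2 at 0 or 1 counts in every library. The 6 erythroid markers, also all highest in it, summed to 123 CPM, against 55.0 and 94.3 CPM in the other CIH libraries and 63.6 to 98.6 CPM in control. In bulk tissue, fewer cells of a type and less RNA per cell cannot be told apart. The part of these markers in the values below was not tested, and values without CIH replicate 1 stand beside the results it touches.

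The PAR bZIP genes and Bhlhe40 were the most abundant of the set and Nfil3 the least, on the authors' TPM scale, which corrects for transcript length. Tef had a level of 142 ± 7.63 TPM in CIH and 133 ± 3.57 TPM in control, and Dbp one of 175 ± 38.0 TPM in CIH and 122 ± 20.4 TPM in control (SD, n = 3 each). Hlf stood at 111 ± 52.7 TPM in CIH and 83.9 ± 9.94 TPM in control, and Bhlhe40 at 96.1 ± 25.1 TPM in CIH and 89.4 ± 20.1 TPM in control. The middle of the order was held by the REV-ERB genes and Bhlhe41. Nr1d1 had a level of 81.1 ± 29.5 TPM in CIH and 55.1 ± 6.0 TPM in control, Bhlhe41 one of 51.9 ± 9.26 TPM in CIH and 46.9 ± 13.4 TPM in control, and Nr1d2 one of 44.2 ± 11.3 TPM in CIH and 35.6 ± 4.67 TPM in control. Ciart, at 16.7 ± 3.24 TPM in CIH and 8.55 ± 2.30 TPM in control, and Nfil3, at 5.79 ± 1.04 TPM in CIH and 5.76 ± 1.54 TPM in control, lay below the other 7 in every library. Most neighbours in this order overlapped in their ranges. Nr1d2 and Ciart were the one pair of neighbours that did not overlap in either group. Ciart and Nfil3 were apart in CIH and overlapped in control, and Hlf and Nr1d1 were apart in control and overlapped in CIH.

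**Figure D1:**
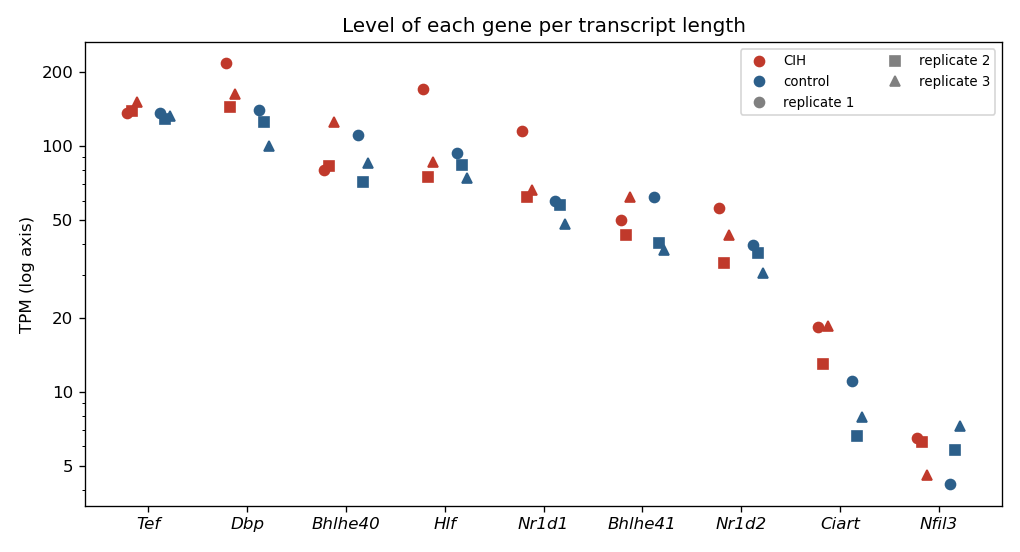
Level of each of the 9 genes in TPM on a log axis, ordered by the control mean, with each library as a point (red CIH, blue control, shape by replicate). Ciart and Nfil3 lie below the other 7 genes in every library, and Tef is the least variable, at 137 to 151 TPM in CIH and 129 to 136 TPM in control.

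The comparison of CIH with control asked whether 4 weeks of intermittent hypoxia changed these genes. After adjustment over all genes, 0 of the 9 were past the threshold of 0.05 in edgeR (every adjusted p = 1.00), and so were 0 of 17935 genes, or 0%. Before adjustment, Ciart (p = 0.00552) and Dbp (p = 0.0318) were under 0.05 in the edgeR fit, whereas an exact permutation test of 3 libraries against 3 cannot go below 0.1. These 2 of 9 members were higher in CIH, as were 0.914% of all tested genes at that unadjusted level, where 319 genes, or 1.78%, lay in either direction. The 3 CIH libraries all lay above the 3 control libraries for 3 members, Ciart, Dbp and Nr1d1, and for 3.05% of all tested genes. No member had all CIH libraries below the controls, which 2.65% of all tested genes had, so that 5.7% were apart in one direction or the other. All 9 fold changes were above 0, with a median log2 fold change of 0.31, whereas 50.6% of all tested genes were above 0 and their median was 0.00. With 1 library left out, 8 were above 0 and 1 below in 5 of the 6 fits, and the median ran from 0.17 without CIH replicate 1 to 0.47 without CIH replicate 2. Some marker lists of other tissue and cells also lay mostly above 0 in CIH. Among them were 12 of 12 endothelial and pericyte genes (median 0.27, 4 with all CIH libraries higher) and 8 of 8 myelin genes (0.36). Cortex (7 of 8, 0.56), erythroid (6 of 6, 0.40) and pyramidal cell genes (5 of 6, 0.18) were others. Dentate granule and choroid plexus genes went the other way, each with 0 of 6 above 0 (medians -0.43 and -0.64). Astrocyte (2 of 6), neuron (3 of 6) and microglia (4 of 6) genes were mixed. The part of these lists in the members' values was not tested. Several of the 9 members are known to regulate each other and all were measured in the same 6 libraries, so they are not 9 separate observations. DESeq2 called 0 of the 9 members and 0.0372% of all genes, and its smallest adjusted p among the members was 0.773, for Ciart.

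**Figure D2:**
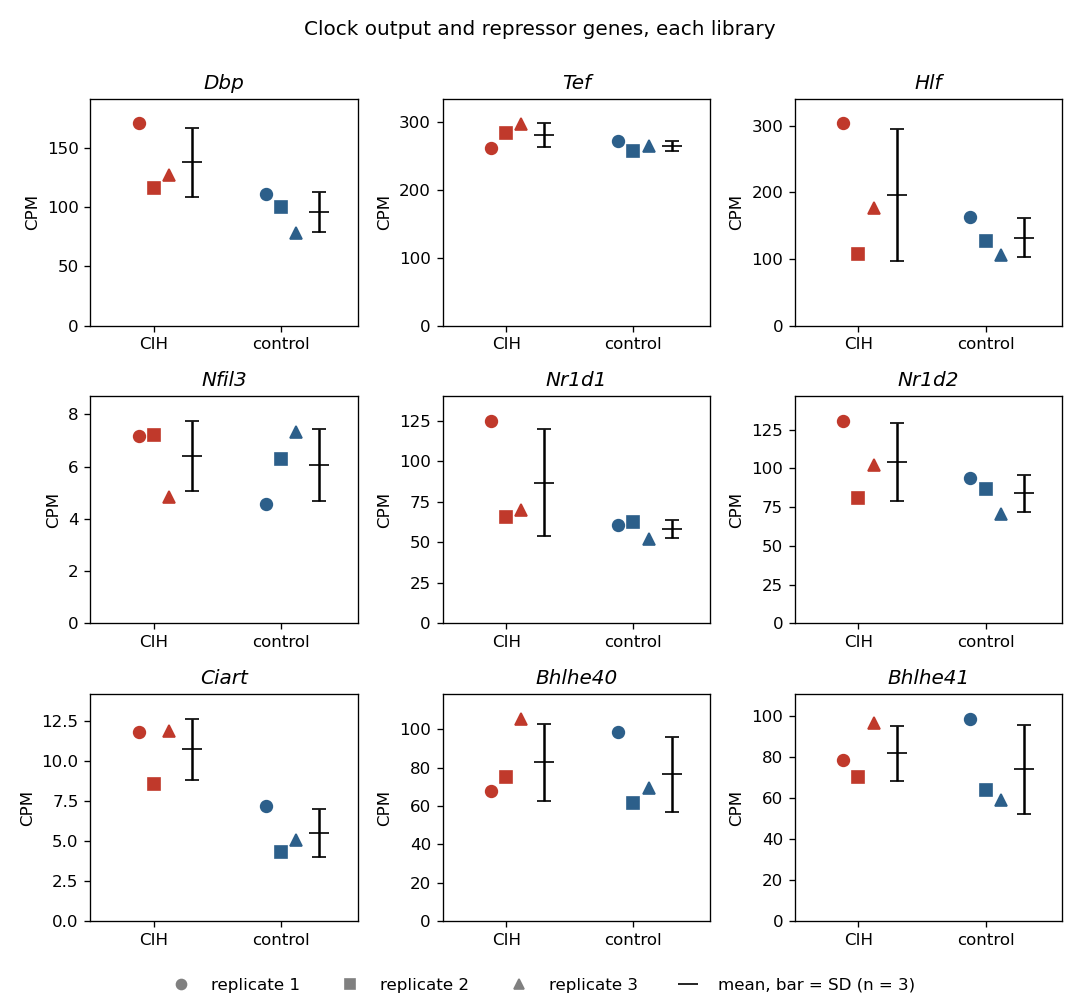
CPM of each gene in each library (red CIH, blue control, shape by replicate), with the mean and SD of 3 libraries in black and all axes starting at 0. The groups are apart for Dbp, Nr1d1 and Ciart and overlap for the other 6 genes, and CIH replicate 1 is far above the rest for Hlf and Nr1d1.

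Ciart, which encodes a repressor that binds the CLOCK and BMAL1 pair, showed the largest fold change of the set. Its level was 11.8, 8.53 and 11.9 CPM in CIH replicates 1, 2 and 3, against 7.15, 4.29 and 5.05 CPM in control replicates 1, 2 and 3. Every CIH library was higher than every control library, with the narrowest gap between CIH replicate 2 and control replicate 1. The means were 10.7 ± 1.90 CPM in CIH and 5.50 ± 1.48 CPM in control (SD, n = 3 each). The log2 fold change was 0.96 (SE 0.24), or 1.95-fold, and did not pass in edgeR (adjusted p = 1.00). These values rest on 180 to 235 estimated counts in CIH and 86 to 144 in control. Without CIH replicate 1 the log2 fold change was 0.89, and over all left-out libraries it ran from 0.81 to 1.2.

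The window around the start of Ciart held more E-boxes than that of any other member matched and is shown for that reason. It lies at chr2:186112197-186112496 on the minus strand of GRCr8 (RefSeq), 250 bases before the annotated start of the transcript and 50 after it, and capitals mark the E-box letters CACGTG, which read the same on both strands:
Ciart: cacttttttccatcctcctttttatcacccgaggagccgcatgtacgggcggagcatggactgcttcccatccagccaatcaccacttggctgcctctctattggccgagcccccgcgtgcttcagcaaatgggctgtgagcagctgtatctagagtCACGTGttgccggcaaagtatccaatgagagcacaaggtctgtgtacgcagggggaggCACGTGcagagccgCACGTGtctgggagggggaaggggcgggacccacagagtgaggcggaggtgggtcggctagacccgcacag

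The 3 E-boxes begin at -93, -35 and -21 relative to the first transcribed base, counted as 0. Of 33469 RefSeq windows of the same length, 6.42% held at least 1 CACGTG and 0.0568%, or 19 windows, held 3 or more. Among the other members, a window was found for 7, and 4 of them held 1 CACGTG each: Tef, Bhlhe40, Bhlhe41 and the downstream of the 2 start sites of Nr1d1. They are shown with 12 bases on each side, to set beside the Ciart window; the capitals again mark the E-box.
Tef, GRCr8 chr7:115206617-115206646, plus strand: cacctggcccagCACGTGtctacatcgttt
Nr1d1, GRCr8 chr10:84229628-84229657, minus strand: tgtcagctcccaCACGTGtctggggatcct
Bhlhe40, GRCr8 chr4:143174218-143174247, plus strand: agcgttgtccaaCACGTGagactcatgtga
Bhlhe41, GRCr8 chr4:180569386-180569415, minus strand: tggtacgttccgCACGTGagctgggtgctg

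The windows of Dbp, Nfil3 and Nr1d2 held no CACGTG, which says only that these letters are not in the 300 bases searched. Hlf was not matched. The upstream start site of Nr1d1 held 1 copy of the variant CACGTT, searched on both strands and found in 4.83% of all windows. No member held the D-box letters TTANNTAA, present in 5.84% of all windows. None held the ROR element letters TAGGTCA, searched on both strands and present in 2.63%. The window of Bmal1, the current symbol of Arntl and the classical REV-ERB target, held 1 ROR element, shown here in capitals because it is the kind of site through which Nr1d1 and Nr1d2 act.
Bmal1, GRCr8 chr1:176766300-176766330, plus strand: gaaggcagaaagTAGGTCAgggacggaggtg

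Windows with an E-box did not share a common pattern of values. Ciart and Nr1d1 were higher in each CIH library, while Tef, Bhlhe40 and Bhlhe41, each with 1 E-box, overlapped between the groups, and Dbp, with none in the window, did not overlap. The letters ACGTG, the only form of the core of a HIF site that was searched, were sought on both strands. They are part of every E-box counted here and occurred in 19.3% of all windows. Apart from its E-box, the Bhlhe40 window held these letters at 2 further places, at -149 and -124. The upstream Nr1d1 window, with no CACGTG, held them at -173 and 32. The values of Bhlhe40 are given below.

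Of the PAR bZIP activators, Dbp was higher in each CIH library, Hlf followed CIH replicate 1, and Tef was nearly flat. Dbp had 171, 116 and 127 CPM in CIH replicates 1, 2 and 3, against 111, 100.02 and 77.9 CPM in control replicates 1, 2 and 3. The groups did not overlap, but CIH replicate 2 and control replicate 1 were close. The log2 fold change was 0.52 (SE 0.19), and without CIH replicate 1 it was 0.33; over all left-out libraries it ran from 0.33 to 0.64.

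Hlf, the third of these activators, had 304, 108 and 176 CPM in CIH replicates 1, 2 and 3, against 163, 127 and 106 CPM in control replicates 1, 2 and 3. CIH replicate 1 was far above every other library, and CIH replicate 2 lay within the controls. The log2 fold change of 0.57 (SE 0.37) became 0.10 without CIH replicate 1, and 0.31 in limma on the authors' TPM with a pseudocount of 1. Hlf was also the member whose estimated counts per TPM varied most between libraries, by 1.43-fold, where the other members varied by at most 1.11-fold. Since RSEM-type TPM values divide by a length that depends on the isoforms assigned in each library, the count and TPM scales can differ for such a gene; which scale is nearer to the RNA was not tested. Hlf also overlaps a lncRNA gene, LOC134480714, in the RefSeq gene table (GRCr8), so reads in the shared part are uncertain where strand was not used in counting.

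Tef stood at 262, 284 and 296 CPM in CIH replicates 1, 2 and 3, against 272, 256 and 264 CPM in control replicates 1, 2 and 3. The groups overlapped, and the means were 281 ± 17.5 CPM in CIH and 264 ± 7.79 CPM in control (SD, n = 3 each). Its log2 fold change was 0.09 (SE 0.10), and it was the one PAR bZIP gene that was not highest in CIH replicate 1.

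Nfil3, the D-box repressor, had 7.17, 7.21 and 4.85 CPM in CIH replicates 1, 2 and 3, against 4.57, 6.29 and 7.32 CPM in control replicates 1, 2 and 3. The groups overlapped almost completely, with a log2 fold change of 0.08 (SE 0.25) whose direction turned when 1 library was left out (-0.09 to 0.24). The ratio of Dbp to Nfil3 in CPM, activator over repressor, was 23.9, 16.1 and 26.2 in CIH, against 24.3, 15.9 and 10.6 in control. The ratio overlapped between the groups: control replicate 1 lay with CIH replicates 1 and 3, and control replicate 2 with CIH replicate 2.

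The REV-ERB genes were highest in CIH replicate 1. Nr1d1 had 125, 65.4 and 70.1 CPM in CIH replicates 1, 2 and 3, against 60.5, 62.8 and 52.2 CPM in control replicates 1, 2 and 3. The groups did not overlap, although CIH replicate 2 and control replicate 2 differed by little, and CIH replicate 1 was far above the rest. The log2 fold change was 0.57 (SE 0.25), and 0.21 without CIH replicate 1. In the RefSeq gene table (GRCr8) Nr1d1 overlaps Thra, a thyroid hormone receptor gene, and the use of strand in the counting was not given in the sources used here, so reads in the shared part are uncertain. Thra had 352, 459 and 333 CPM in CIH and 306, 467 and 465 CPM in control, an order unlike that of Nr1d1, with a log2 fold change of -0.11 (SE 0.21).

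Nr1d2, the second REV-ERB, had 131, 80.6 and 102 CPM in CIH replicates 1, 2 and 3, against 94.1, 87.0 and 70.9 CPM in control replicates 1, 2 and 3. CIH replicate 2 lay below control replicates 1 and 2, so the groups overlapped. The log2 fold change was 0.31 (SE 0.20), and 0.12 without CIH replicate 1. Arntl, the gene that both receptors repress, stood at 18.8, 16.5 and 15.6 CPM in CIH, against 17.4, 20.5 and 18.9 CPM in control, with a log2 fold change of -0.16 (SE 0.13) that did not pass the edgeR test (adjusted p = 1.00). The ratio of Nr1d1 to Arntl in CPM was 6.66, 3.96 and 4.49 in CIH, against 3.48, 3.07 and 2.76 in control. Each CIH library had a higher ratio than each control library, as for Nr1d1 itself.

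The DEC genes were highest in CIH replicate 3 and control replicate 1. Bhlhe40, which encodes DEC1, had 67.9, 75.1 and 106 CPM in CIH replicates 1, 2 and 3, against 98.4, 61.4 and 69.6 CPM in control replicates 1, 2 and 3. Bhlhe41, which encodes DEC2, had 78.6, 70.4 and 96.7 CPM in CIH replicates 1, 2 and 3, against 98.8, 64.2 and 58.9 CPM in control replicates 1, 2 and 3. The groups overlapped for both, and Nfil3 was lowest in the libraries where they were highest. The log2 fold changes were 0.12 (SE 0.23) for Bhlhe40 and 0.15 (SE 0.22) for Bhlhe41; that of Bhlhe40 ran from -0.10 to 0.34 over the left-out libraries and that of Bhlhe41 from 0.01 to 0.41.

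This pair, one library of each group, was the most alike of all 15 pairs in its counts over genes (chi-square per degree of freedom of 6.67, against 12.3 to 60.4 for the others). The summed CPM of several marker lists was highest in it. The 8 myelin genes summed to 4888, 5304 and 7519 CPM in CIH replicates 1, 2 and 3, against 7429, 3078 and 3044 CPM in control replicates 1, 2 and 3, and 8 of 8 had a log2 fold change above 0. In CIH replicate 3 and control replicate 1 the dentate granule markers summed to 709 and 868 CPM, the pyramidal cell markers to 1331 and 1376 CPM and the choroid plexus markers to 19.5 and 20.4 CPM, in each case above the other 4 libraries. Single genes carried much of each sum. In the pair, Mbp of the myelin list had 3488 and 3408 CPM, and Prox1 of the dentate list 360 and 420 CPM. Wfs1 of the pyramidal cell list had 716 and 784 CPM, and Ttr of the choroid plexus list 15.9 and 14.4 CPM. Of the 6 pyramidal cell genes, 4 were highest in CIH replicate 2, among them Fibcd1 (348 CPM, against 150 and 170 CPM in the pair). Calb1, of the dentate list, had 24.8 and 26.7 CPM in the pair, against 43.9 to 53.8 CPM in CIH replicate 2 and control replicates 2 and 3. The part of these markers in the DEC values was not tested. Of the clock-controlled genes, Klf9, which encodes a transcription factor that responds to glucocorticoids, was also high in this pair, with 243, 259 and 336 CPM in CIH and 374, 216 and 235 CPM in control. Usp2, a ubiquitin protease gene under clock control, had 79.1, 63.3 and 84.1 CPM in CIH and 110 CPM in control replicate 1, against 49.5 and 50.1 CPM in the other controls. Klf9 and Usp2 were named after their values were seen.

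**Figure D3:**
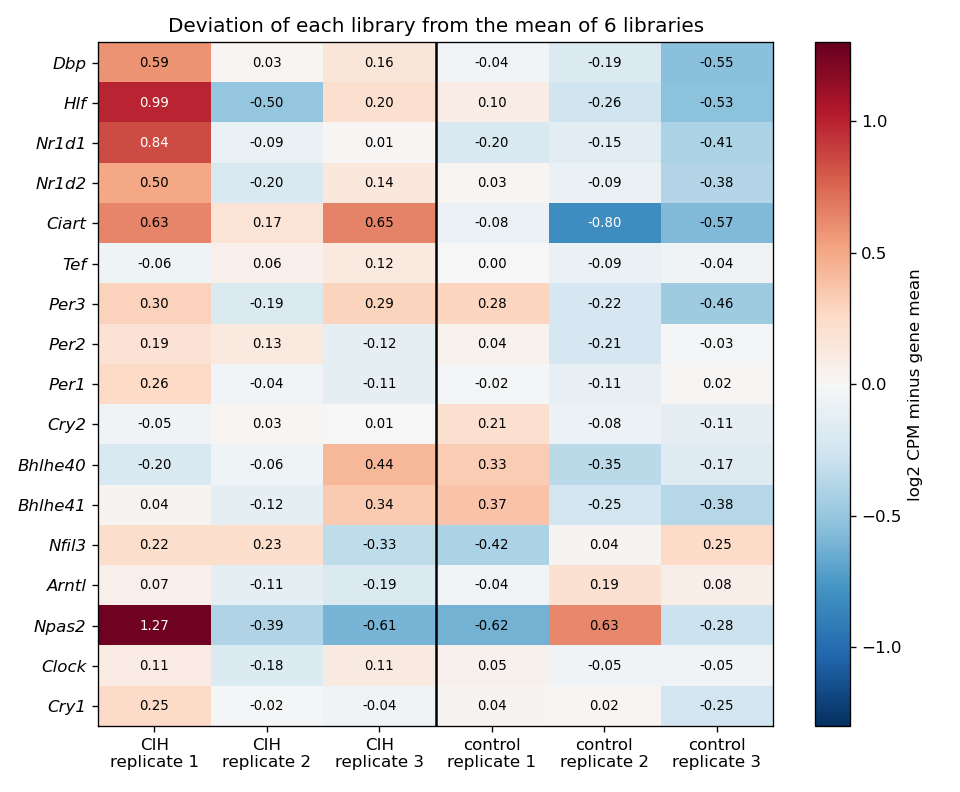
Log2 CPM of each gene in each library minus the gene's mean over 6 libraries, with CIH libraries left of the line and controls right of it. Dbp, Hlf, Nr1d1 and Nr1d2 are highest in CIH replicate 1 and lowest in control replicate 3, Bhlhe40 and Bhlhe41 are high in CIH replicate 3 and control replicate 1, and Npas2 is high in CIH replicate 1.

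The libraries were then read for agreement with the known order of the clock, in which Dbp, Tef, Hlf, the REV-ERB genes, Ciart and Per3 peak at a time of day opposite to Arntl, Npas2, Clock, Nfil3 and Cry1. In CIH replicate 3, 7 of 7 genes of the Dbp phase were above their own mean over the 6 libraries and 1 of 5 genes of the Arntl phase was. In control replicate 2 the reverse was seen, with 0 of 7 of the Dbp phase and 4 of 5 of the Arntl phase above their means. In CIH replicate 1, however, 6 of 7 of the Dbp phase and 5 of 5 of the Arntl phase were above, so the opposed genes were high together in the library with the highest Dbp, Hlf and Nr1d1. The other libraries were mixed: CIH replicate 2 had 3 of 7 and 1 of 5 above, control replicate 1 had 3 of 7 and 2 of 5, and control replicate 3 had 0 of 7 and 2 of 5. Some of these counts rest on small log2 deviations. Nr1d1 was 0.01 above its mean in CIH replicate 3, and Nfil3 0.04 and Cry1 0.02 in control replicate 2. Each mean also includes CIH replicate 1, which lay 0.99 above it for Hlf, 0.84 for Nr1d1 and 1.27 for Npas2.

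The mean deviation of the Dbp phase minus that of the Arntl phase, in log2 CPM, was 0.16, -0.01 and 0.44 in CIH replicates 1, 2 and 3, against 0.21, -0.42 and -0.37 in control replicates 1, 2 and 3. Control replicate 1 lay above CIH replicates 1 and 2, so the groups overlapped. The CIH mean was 0.20 ± 0.22 and the control mean -0.20 ± 0.35 (SD, n = 3 each), a difference of 0.39. The Dbp phase differed by 0.44 between the groups and the Arntl phase by 0.05. Without CIH replicate 1, where Npas2 was high, they differed by 0.28 and -0.13. Without control replicate 1 the Arntl phase differed by -0.03. It stayed above 0 without CIH replicate 2 (0.11), CIH replicate 3 (0.17), control replicate 2 (0.15) or control replicate 3 (0.04). Leaving out libraries for these phase means was chosen after seeing the data. When none of the 9 genes was used, Per3 against Arntl, Npas2, Clock and Cry1 gave a difference of 0.23. Of the 5 Arntl-phase genes, Npas2 lay farthest from its own mean in every library, so the mean of that phase leans on it. Its deviations were 1.27, -0.39 and -0.61 in CIH replicates 1, 2 and 3. In control replicates 1, 2 and 3 they were -0.62, 0.63 and -0.28. All these phase values are given without a test.

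Among the 6 libraries the members with the highest Pearson r with Dbp were the REV-ERB genes, while Ciart came before Nr1d2 by Spearman rho. The log2 CPM of Nr1d1 correlated with that of Dbp at a Pearson r of 0.922 and a Spearman rho of 0.943 (n = 6), with two-sided exact permutation p of 0.00417 and 0.0167. Over the 9 relations computed, the adjusted p was 0.0375 for r and 0.131 for rho, so the relation passed by Pearson and not by Spearman. The permutations ran over all 6 libraries regardless of group, so a shift between the groups also enters these p-values. Without CIH replicate 1 and control replicate 3, the libraries farthest from the median of Dbp, r was 0.773 over the remaining 4. The CIH libraries lay above the controls in both genes, although neither gene passed in edgeR. For that reason r was also taken on deviations from the group means. It was then 0.869 for Nr1d1, 0.958 for Nr1d2, 0.909 for Hlf and 0.546 for Ciart.

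Nr1d2 (r = 0.936, rho = 0.829), Hlf (r = 0.872, rho = 0.829) and Ciart (r = 0.832, rho = 0.886) did not pass in log2 CPM, each with an exact permutation adjusted p of 0.0625 for r and 0.131 for rho. The unadjusted exact p was 0.0139 for r and 0.0583 for rho with Nr1d2, 0.0278 and 0.0583 with Hlf, and 0.025 and 0.0333 with Ciart. Without the 2 farthest libraries r was 0.501 for Nr1d2 and 0.426 for Hlf, so these relations rest on those libraries, while it was 0.996 for Ciart over the same 4 libraries. Hlf and Nr1d2 had the same order of all 6 libraries. Bhlhe41 (r = 0.541, rho = 0.60), Tef (r = 0.179, rho = 0.314), Bhlhe40 (r = 0.155, rho = 0.257), Nfil3 (r = -0.0779, rho = -0.257) and Arntl (r = -0.266, rho = -0.60) gave exact permutation adjusted p from 0.49 to 0.839 for r and from 0.363 to 0.658 for rho. Without the same 2 libraries r was 0.993 for Tef, 0.794 for Bhlhe40, 0.638 for Bhlhe41, -0.319 for Nfil3 and -0.972 for Arntl, and on deviations from the group means it was -0.498 for Tef, -0.00093 for Bhlhe40, 0.493 for Bhlhe41, -0.294 for Nfil3 and 0.359 for Arntl. These values therefore hinge on which of the few libraries are used.

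Set against all tested genes, 0.686% had a higher r with Dbp than Nr1d2 had, 0.953% a higher one than Nr1d1, 2.58% than Hlf and 4.10% than Ciart. For Bhlhe41, Tef, Bhlhe40 and Nfil3 the shares were 19.4%, 40.7%, 41.96% and 54.4%. The genes most like Dbp over the 6 libraries, among 11154 with a mean log2 CPM above 3, were Fxyd7 (r = 0.994), Adgrl2 (0.992), Reep5 (0.983), Sorbs2 (0.979) and Hspb6 (0.979), none of them a clock gene in the lists used. Fxyd7 encodes a regulator of the sodium pump found in brain, and Adgrl2 a latrophilin receptor of synapses. In all, 40 genes of this abundance had an r with Dbp above 0.95, and all of these correlations share the same 6 libraries.

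Of 16 listed core clock genes (activators, PER, CRY, ROR, kinases and their partners), 15 were tested, 10 had a log2 fold change above 0 and 5 below, 0 passed the edgeR test in either direction, and the median log2 fold change was 0.08. The groups overlapped for all 15, as for most tested genes, of which 5.7% did not overlap in either direction. Per3 stood at 0.25 (SE 0.22), Per2 at 0.13 (SE 0.12), Per1 at 0.08 (SE 0.13), Cry1 at 0.12 (SE 0.15), Cry2 at -0.02 (SE 0.12) and Clock at 0.03 (SE 0.11) in log2 fold change. Over the left-out libraries Per3 ran from 0.10 without control replicate 3 to 0.49 without control replicate 1, Per2 between 0.06 (control replicate 2 left out) and 0.22 (CIH replicate 3 left out), and Cry1 between 0.02 (CIH replicate 1 left out) and 0.18 (control replicate 1 left out). Npas2, the partner of BMAL1 that can replace CLOCK, had 181, 57.1 and 49.1 CPM in CIH replicates 1, 2 and 3, against 48.8, 116 and 61.7 CPM in control replicates 1, 2 and 3. Its log2 fold change of 0.34 (SE 0.56) became -0.51 without CIH replicate 1, the library with the highest sum of cortex markers. The part of the cortex markers in this value was not tested. Per1 and Clock also changed direction without CIH replicate 1, to -0.04 and -0.016. Clock did so without CIH replicate 3 as well, to -0.019. Rora, which encodes the activator that competes with the REV-ERBs, was likewise highest in CIH replicate 1, at 128 CPM against 62.8 and 68.6 CPM in the other CIH libraries and 60.6 to 67.9 CPM in control. Rora, like Thra above, was named after its values were seen.

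**Figure D4:**
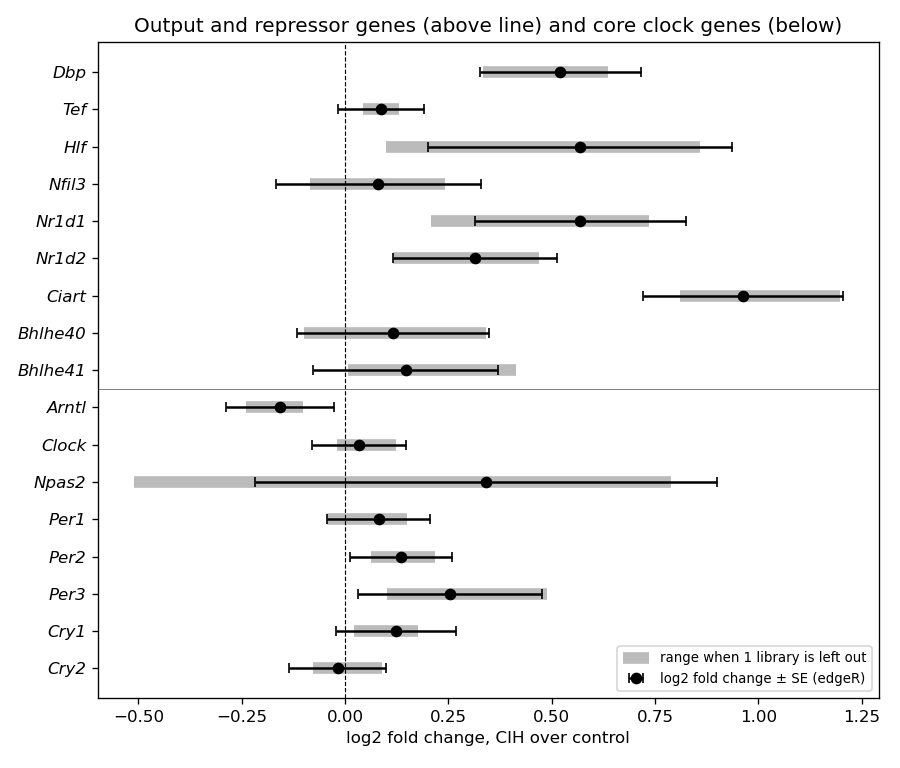
Log2 fold change of CIH over control from edgeR with its SE (points and bars) and the range over the 6 fits that leave out 1 library (grey), for the 9 genes above the line and 8 core clock genes below it. Ciart, at 0.96, has the largest value, and the grey range of Npas2 crosses 0 widely, from -0.51 to 0.79.

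Genes downstream of the clock, of HIF-1, of glucocorticoids and of neuronal activity were read from the same fit, and 0 genes of these lists were past the threshold in edgeR (adjusted p = 1.00 for those named here). Of 10 clock-controlled genes, 7 were above 0 and 3 below, with a median log2 fold change of 0.05, and the 4 with the smallest p were Tsc22d3 at -0.12 (SE 0.12), Pdk4 at 0.14 (SE 0.20), Klf10 at 0.07 (SE 0.12) and Wee1 at 0.06 (SE 0.14). Of 14 tested HIF-1 targets, a list that leaves out the DEC genes, 12 were above 0 and 2 below with a median of 0.10, and the CIH libraries lay above the controls for 3 of them, beside 50.6% above 0 and 3.05% with all CIH libraries higher among all tested genes. These 3 were Vegfa at 0.31 (SE 0.10), Tfrc at 0.38 (SE 0.13) and Kdm3a at 0.18 (SE 0.10), and the part of the endothelial markers, 12 of 12 above 0, in them was not tested. Ndrg1, also of this list, stood at 0.33 (SE 0.20).

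Of 12 glucocorticoid-induced genes, 8 were above 0 and 4 below, with a median of 0.02. Fkbp5, which encodes a chaperone of the glucocorticoid receptor, stood at -0.26 (SE 0.24), Sgk1, a kinase gene, at 0.13 (SE 0.15), Tsc22d3, also of this list, at the value above, and Plin4 at 0.26 (SE 0.30). Of 13 activity-induced genes, 5 were above 0 and 8 below, with a median of -0.03. Nr4a2 stood at 0.54 (SE 0.35), Npas4 at 0.23 (SE 0.30), Fos at 0.34 (SE 0.52) and Egr2 at -0.12 (SE 0.14).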

How the data were processed

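Hippocampal RNA of male rats was read on BGI sequencers, per the labels. As tools and build, the submitters' processing notes name HISAT2 2.2.0, Bowtie2 2.2.5, RSEM 1.2.12 and Rnor_6.0, without saying what each did; annotation and strand use were not given in the sources used here. Per the file headers, the authors deposited estimated counts and TPM for 26949 genes. Rounding to whole numbers touched 16.0% of the deposited estimated counts. The authors' TPM gave levels between genes and an alternative test. The FPKM columns and the 6 small RNA libraries were not used.

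Groups came from the sample titles. The main test was the quasi-likelihood test of edgeR 4.0.16 (R 4.3.3) with TMM normalization, the filterByExpr filter, no block, and Benjamini-Hochberg adjustment over 17935 genes at a threshold of 0.05. Fold changes are log2 of CIH divided by control; each SE comes from its F statistic. Log2 CPM used a prior count of 2. All library pairs differed beyond sampling noise, with a chi-square per degree of freedom no smaller than 6.67. Alternatives were RLE factors, no filter on low counts, DESeq2 1.42.0, limma 3.58.1 on log2(TPM + 1) and log2(TPM + 0.1), a replicate block, and leaving out each library. On simulated counts over 17935 genes, built from these 6 libraries for the same contrast, 30% of 100 genes set to a change of 1 log2 unit and 88% of 100 set to 2 were called, beside 5 false calls. Each gene was drawn on its own, without shifts shared by many genes of a library, so these shares may not hold for the real data.

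The 9 genes, the lists and the tests were chosen with earlier results of these data known. The rule named the 9 genes, 8 core clock genes, up to 4 genes of each other list with the smallest p, and the 5 genes most correlated with Dbp. Promoter windows and gene overlaps came from RefSeq (GRCr8), with all 9 gene identifiers matched and windows for 8. Plots used matplotlib 3.10.9 (Python 3.11.15).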

Additional observations from a re-analysis of the deposited data

How the results depend on the processing

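None of the 9 genes passed under any alternative run, with adjusted p from 0.607 to 1.00. Of all genes, DESeq2 called 10 and limma on log2 TPM called 1 with a pseudocount of 1 and 1 with 0.1 (NEWGENE_1306267 in both), none of them in the lists used here; the cause was not tested. RLE factors, no filter and the replicate block called 0, and leaving out 1 library called 0 to 1 (Wbp11l1 without CIH replicate 2, Wbp11 without control replicate 3). These genes were named after their values were seen. Under the replicate block all 9 members stayed above 0, with a median log2 fold change of 0.30, while leaving out 1 library gave 8 above 0 and 1 below in 5 of 6 fits, with medians from 0.17 to 0.47. The labels do not say whether replicate numbers pair the libraries. The deviations of same-numbered libraries correlated at -0.222, -0.0457 and -0.176. Without the differently numbered libraries for comparison, these values cannot decide it. The replicate block changed no call. Leaving out 1 library turned the direction of Nfil3 (-0.085 to 0.24), Bhlhe40 (-0.10 to 0.34), Clock (-0.019 to 0.12), Npas2 (-0.51 to 0.79), Per1 (-0.043 to 0.15) and Cry2 (-0.077 to 0.090). The phase difference ran from 0.27 to 0.59 over the left-out libraries. On log2 TPM the correlation of Nr1d2 with Dbp was 0.932 and passed (exact permutation adjusted p = 0.0438). Counting error is largest for Ciart, with at most 235 estimated counts in a library, and Nfil3, with at most 158. In simulated data of this size, with each gene drawn on its own, the test called 30% of genes changed by 1 log2 unit.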
